A study of Oryza sativa with 8 samples.

Results

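Gene-poor bins were 50-kb bins of the rice genome that held no gene, 1 gene or 2 genes and had a compartment score in all 4 libraries of a cultivar. They numbered 919 of the 7040 scored bins in Nipponbare (Nip, a japonica rice) and 1226 of the 7317 scored bins in 93-11 (an indica rice), which was 13.1% and 16.8%. The cultivars were treated separately, because each has its own coordinates. The gene number of a bin, taken from the compartment tables, was the only value used to choose them besides the presence of a score.

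Hi-C, which captures contacts between distant stretches of chromatin by ligating crosslinked DNA, had been carried out on aerial parts of 3-week-old seedlings, a mixture of cell types, with 2 g of tissue per library. The groups were Nip HS, Nip normal, 93-11 HS and 93-11 normal, with 2 biological replicates each and 8 libraries in all. Heat stress (HS) was 45 °C for 36 h at a humidity above 80% and a light of 60 to 80 µmol m-2 s-1, after growth at 800 µmol m-2 s-1. The light and humidity of the normal seedlings over those hours are not given in the sources used here, so temperature cannot be told apart from light and humidity in any difference between HS and normal.

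Plant chromosomes fold at several scales. Compartments are the coarse division of a chromosome into open, gene-rich chromatin (A) and condensed, repeat-rich chromatin (B), whose stretches contact their own kind more than the other. The sign of PC1, the first principal component of the contact map, is read as the compartment, here A above 0 and B otherwise. Topologically associating domains (TADs) are shorter stretches with more contacts inside than across their boundaries. In cereals, gene-poor DNA is mostly made of transposable elements and lies largely around the centromeres. The comparisons asked how this chromatin differed from the remaining bins, which held at least 3 genes, and whether it changed upon HS.

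The limit of 2 genes lay well below the median bin, which held 6 genes in Nip and 5 in 93-11, while the fullest bins held 18 and 23. Gene-poor bins in Nip comprised 125 bins with no gene, 321 with 1 and 473 with 2. In 93-11 they comprised 250, 399 and 577 bins. Together they carried only 3.21% of the genes of scored bins in Nip and 3.92% in 93-11. A further 177 bins of Nip and 291 of 93-11 had no more than 2 genes but lacked a score in at least 1 library, and they were left out of everything below unless named.

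Gene-poor bins were scattered as well as clustered. Joined where adjacent, those of Nip made 599 runs, 422 of them only 1 bin long, and those of 93-11 made 715, with 456 of only 1 bin. Runs of at least 3 bins held 31.0% of the gene-poor bins in Nip and 40.5% in 93-11. They lay towards the middle of chromosomes. The inner 50% of a chromosome held 75.0% of gene-poor bins in Nip, against 46.6% of other bins, and 75.4% against 44.6% in 93-11. The outer 2 Mb held 4.79% of gene-poor bins and 12.9% of other bins in Nip, and 4.24% and 13.5% in 93-11. Chromosome 1 had the smallest share of gene-poor bins in both cultivars (5.85% in Nip and 7.79% in 93-11) and chromosome 12 the largest (21.9% and 25.8%).

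Gene-poor chromatin was almost entirely B. In Nip, 7.07% and 6.75% of gene-poor bins were A in HS replicates 1 and 2, and 6.42% and 6.09% in normal replicates 1 and 2. In 93-11, the shares were 8.24% and 7.91% in HS and 5.38% and 5.63% in normal libraries. The methods assign the active side of PC1 with the gene annotation, so its sign draws on the gene number by which these bins were chosen, and the level of PC1 and the share in A beside other bins are given as a description with no test. In other bins the share in A averaged 56.4% in HS and 56.4% in normal libraries of Nip, and 58.6% and 57.5% in 93-11. The share of gene-poor bins in A was thus higher in both HS libraries than in both normal ones of each cultivar, by 0.653 percentage points in Nip and 2.57 in 93-11. This difference was 0.620 points larger than that of other bins in Nip and 1.52 points larger in 93-11, with a mean of 1.07 points. With bins of 0 to 1 genes the mean was only 0.266 points (exact permutation, p = 0.17), and the HS minus normal difference itself was 0.448 points in Nip and 1.46 in 93-11. With 2 libraries against 2, an exact two-sided permutation test cannot give a p below 0.33, and relabelling within both cultivars together cannot go below 0.056 over 36 relabellings, so no difference between conditions over library values can pass 0.05 here. Each of these changes in the share of A bins had the smallest p possible (exact permutation, p = 0.33 within a cultivar and p = 0.056 over both). Whether the cultivars differed in this was compared by relabelling too, which gave p = 0.33 (exact permutation) for a difference of 1.92 points.

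The share in A was higher with each added gene. In Nip under HS it was 2.8% for bins with no gene, 4.21% with 1, 9.83% with 2, 22.9% with 3 and 32.3% with 4, and it reached 88.9% with 10 or more. Under normal conditions of Nip the same classes had 2.8%, 3.58%, 8.99%, 22.4%, 31.0% and 89.5%. In 93-11 under HS they had 3.00%, 5.64%, 12%, 22.2%, 36.8% and 91.3%, and under normal conditions 1.80%, 4.01%, 8.15%, 21.1%, 35.2% and 91.1%. The bins just inside the limit, with 2 genes, and just outside, with 3, thus lay within a series in which the share was higher at each further gene class on both sides of the limit.

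**Figure D1:**
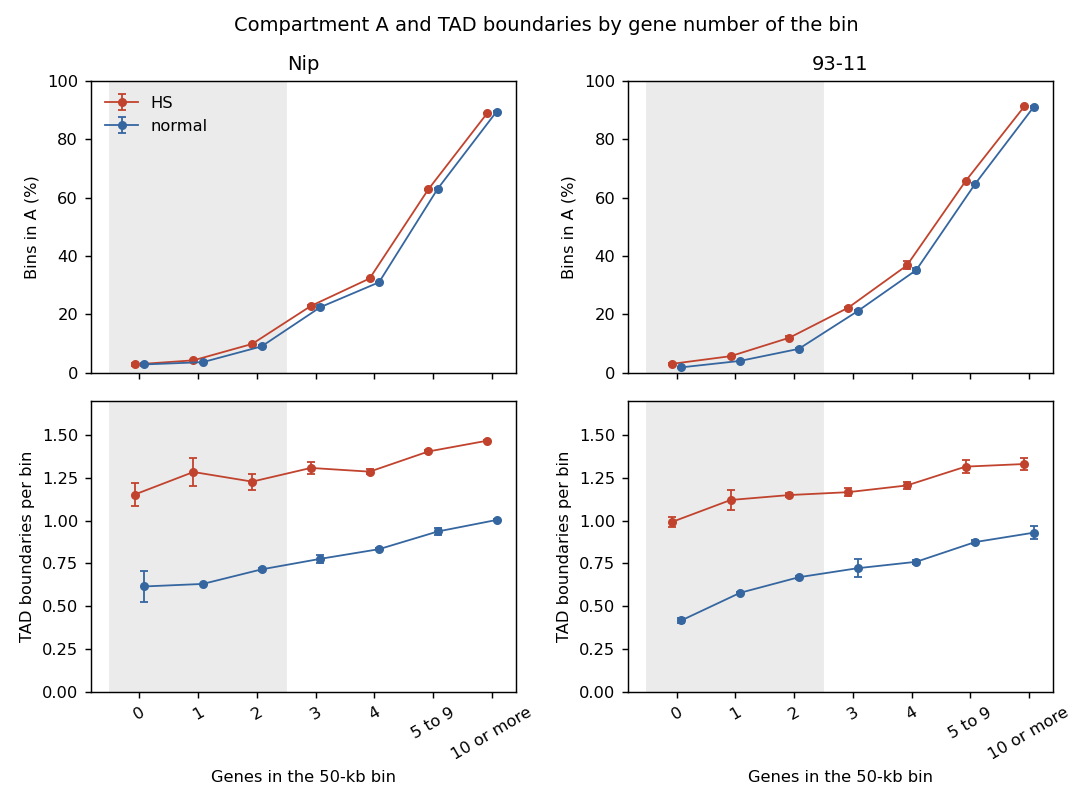
Share of bins in A (%, top) and TAD boundaries per bin (bottom) against the number of genes in the 50-kb bin, for Nip (left) and 93-11 (right). Points are means of the 2 HS (red) or 2 normal (blue) libraries with SD bars, and gray marks the gene-poor bins; under HS boundaries stand above normal in every class, and in bins with no gene of 93-11 they average 0.992 in HS and 0.418 in normal libraries.

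In Nip the PC1 of gene-poor bins averaged -0.0393 and -0.0394 under HS, and -0.0401 in both normal libraries. In 93-11 it averaged -0.0378 and -0.0383 in HS and -0.040 and -0.0401 in normal libraries. Other bins averaged 0.00614 in HS and 0.00596 in normal libraries of Nip, and 0.00777 and 0.00714 in 93-11. The difference, gene-poor minus other, lay between -0.0473 and -0.0454 in every library. PC1 is scaled so that its squares sum to about 1 over a chromosome, so a value can be compared between conditions on a chromosome but its size depends on the number of bins there.

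Upon HS the mean and the median of gene-poor bins differed in opposite directions. The mean PC1 was higher in HS by 0.000743 in Nip and by 0.00197 in 93-11, while the median difference between HS and normal was -0.0015 in Nip and -0.0010 in 93-11. By chromosome, the mean was higher in HS on 7 of 12 in Nip and 9 of 12 in 93-11. Its rise exceeded that of other bins on 7 and 10 chromosomes. Most gene-poor bins are B, and among bins B in all 4 libraries no larger rise of gene-poor bins was seen in Nip. There the change of gene-poor minus that of other bins was -0.000216 in Nip and 0.000370 in 93-11 (exact permutation, p = 0.83 over both). In Nip, bins with no gene (-0.00142) and runs of at least 3 bins (-0.000202) were lower in HS on average, while the other gene and run classes were higher. PC1 was higher in HS in 37.6% of gene-poor bins of Nip and lower in 59.0%, and in 93-11 it was higher in 37.0% and lower in 56.8%. The upward differences were thus fewer and larger, and the downward ones more numerous and smaller. Differences above 0.01 were found in 108 bins of Nip (11.8%) and 134 of 93-11 (10.9%), and differences below -0.01 in 27 (2.94%) and 19 (1.55%), while in other bins the shares were 8.53% and 8.08% above and 8.04% and 4.89% below. Both HS libraries lay above both normal libraries in 242 gene-poor bins of Nip (26.3%; 31.9% of all scored bins) and below both in 436 (47.4%; 32.4% of all). In 93-11 they lay above in 292 (23.8%; 29.7% of all) and below in 506 (41.3%; 29.8% of all). The excess of small downward differences depended on the scale of PC1. With PC1 divided by its SD per chromosome and library, it was lower in HS in 60.0% of gene-poor bins in Nip and 59.9% in 93-11, against 49.4% and 48.4% of other bins. With each library given the same distribution of values (quantile normalization), PC1 was lower in HS in 55.1% of gene-poor bins in Nip and 51.3% in 93-11, against 50.1% and 52.0% of other bins, while the mean was higher in HS by 0.00123 and 0.00191.

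The spread of PC1 among gene-poor bins was wider in HS. Over the bins of Nip its SD was 0.0225 and 0.0223 under HS, and 0.0208 in both normal libraries. In 93-11 it was 0.0220 and 0.0215 in HS and 0.0186 and 0.0187 in normal libraries. Among other bins the SD averaged 0.0400 in HS and 0.0401 in normal libraries of Nip, and 0.0388 and 0.0389 in 93-11.

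How a gene-poor bin differed between conditions went with its PC1 under normal conditions. The size of PC1 depends on the number of bins of a chromosome, so fixed limits on it sort bins partly by chromosome. So that the same library did not set both the class and the change, bins were sorted by PC1 in normal replicate 1 and the change was taken as the HS mean minus normal replicate 2, a split chosen after the data were examined. In Nip, the 258 bins at or below -0.05 changed by a mean of -0.00182 and a median of -0.0035. The 475 bins from there to -0.04 changed by 0.00128 and -0.0010, and the 100 bins from -0.04 to -0.02 by 0.0065 and 0.0040. In 93-11, the same 3 classes held 290, 684 and 146 bins and changed by a mean of -9.8e-05, 0.00110 and 0.00843. The mean difference was thus highest at intermediate levels. In 93-11 the 40 bins from -0.02 to 0 had a mean difference of 0.0124, with 75.0% of them up, and the 27 such bins of Nip one of 0.00270, with 66.7% up. Other bins in the class from -0.04 to -0.02 had a mean difference of 0.00299 in Nip and 0.00372 in 93-11. The 2 normal libraries differed from each other by a mean of -0.00046 in that class of Nip and -0.000774 in 93-11.

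**Figure D2:**
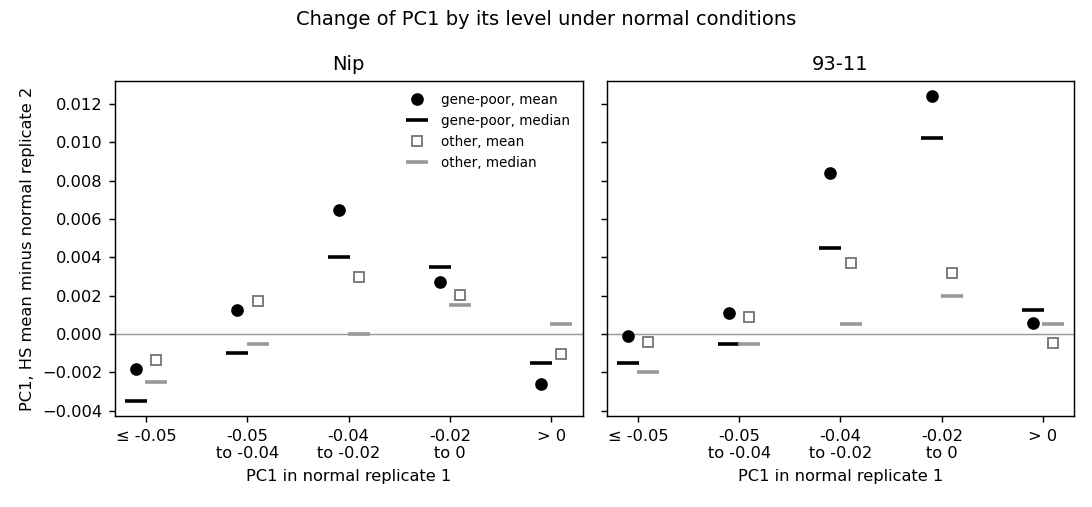
Change of PC1 upon HS (HS mean minus normal replicate 2) against PC1 in normal replicate 1, for gene-poor (black) and other bins (gray) of Nip (left) and 93-11 (right). Circles and squares are means and dashes are medians over bins; gene-poor bins from -0.04 to -0.02 have a mean change of 0.0065 in Nip and 0.00843 in 93-11, and those at or below -0.05 have medians below 0.

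The flanks of a bin separated these differences as well. Most gene-poor bins, 661 in Nip (71.9%) and 869 in 93-11 (70.9%), had a B bin on each side in both normal libraries, against 33.8% and 33.0% of other bins. Their PC1 averaged -0.0450 in HS and -0.0456 in normal libraries of Nip, and -0.0435 and -0.0445 in 93-11. A smaller set, 64 bins in Nip and 98 in 93-11, stood at an edge, with an A bin on one flank and a B bin on the other. HS libraries of Nip gave these edge bins a mean PC1 of -0.0242 and -0.0260, and normal libraries -0.0312 and -0.0320. In 93-11 it was -0.0194 and -0.0196 in HS and -0.0283 and -0.0280 in normal libraries. Gene-poor bins at edges were thus higher in HS by 0.00652 and 0.00861, with 70.3% and 67.3% of them up, while other bins at edges changed by -0.000862 in Nip and 0.00251 in 93-11. Those other edge bins started higher, with a mean PC1 of -0.00163 in normal libraries of Nip and 0.00193 in 93-11. The sets were not matched for PC1, so gene number cannot be told apart from starting level here. The share of gene-poor edge bins in A was 14.8% in HS and 7.81% in normal libraries of Nip, and 25.5% and 14.3% in 93-11. Gene-poor bins with an A bin on each side went in different directions in the cultivars. The 49 of Nip averaged 0.0230 in HS and 0.0277 in normal libraries, and the 53 of 93-11 averaged 0.0243 and 0.0209, and this difference between cultivars was not tested. This split was also chosen after the data were examined.

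**Figure D3:**
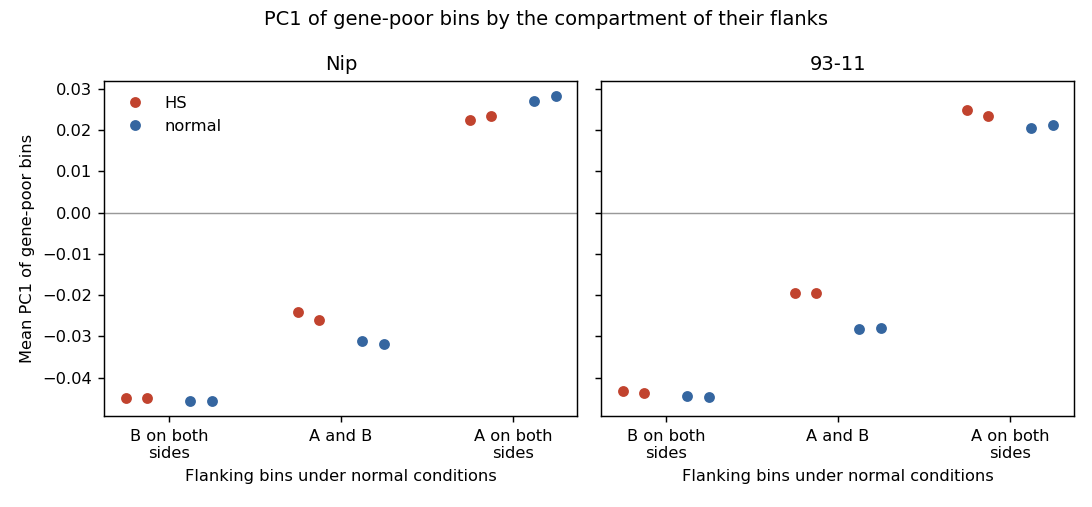
Mean PC1 of gene-poor bins in each HS (red) and normal (blue) library, by the compartment of both flanking bins under normal conditions, for Nip (left) and 93-11 (right). Each point is a library; at the edge between A and B both HS libraries lie above both normal ones, at -0.0260 or higher in Nip and -0.0196 or higher in 93-11.

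PC1 was compared in each bin with limma, fitted over all scored bins of a cultivar with Benjamini-Hochberg adjustment and a threshold of 0.05. In Nip, 21 gene-poor bins were higher in HS (2.29%; 1.59% of all scored bins were called higher) and 12 were lower (1.31%; 1.65% of all). In 93-11, 35 were higher (2.85%; 1.78% of all) and 1 was lower (0.0816%; 0.793% of all). Among other bins, 91 were higher and 104 lower in Nip, and 95 and 57 in 93-11. The calls in gene-poor bins of 93-11 were thus nearly all rises, but the direction turned on the values as deposited, where rounding ties replicates, with 79 rises and 189 falls in 93-11 and 46 and 132 in Nip. Over all scored bins those values gave 622 rises and 627 falls in 93-11 and 508 and 473 in Nip. The calls did not outlast the loss of most single libraries, where the lone library of a condition is assumed to vary like the pair of the other and 1 residual degree of freedom is left before moderation. Without normal replicate 1, or without normal replicate 2, none were left among gene-poor bins or among all scored bins of either cultivar, although 68 gene-poor bins of Nip were higher and 56 lower at an unadjusted limma p below 0.05 without normal replicate 1, and 111 and 28 in 93-11. The unadjusted counts without normal replicate 2 were 64 and 46 in Nip and 122 and 29 in 93-11. Without HS replicate 2, Nip had 63 rises and 13 falls, and without HS replicate 1 it had none (178 and 258 unadjusted). In 93-11, 22 rises and no fall were left without HS replicate 1, and none of either without HS replicate 2 (228 and 123 unadjusted).

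The largest called changes were of the size of a compartment switch. In Nip, the bin of chromosome 8 from 8850001 to 8900000, with 2 genes, had a PC1 of 0.004 and 0.011 in HS and of -0.047 in both normal libraries (limma adjusted p = 0.037). Chromosome 9 from 6200001 to 6250000 had -0.020 and -0.024 in HS and -0.055 and -0.054 in normal libraries, and chromosome 10 from 1300001 to 1350000 had -0.020 and -0.021 against -0.046 and -0.049. Both stayed in B. In 93-11, the bin of chromosome 10 from 150001 to 200000 had 0.027 and 0.029 in HS and -0.032 and -0.028 in normal libraries (limma adjusted p = 0.021). Chromosome 11 from 12300001 to 12350000 had 0.036 and 0.037 in HS and -0.020 and -0.021 in normal libraries. Chromosome 9 from 6100001 to 6150000, which held no gene, had 0.017 and 0.012 in HS and -0.042 in both normal libraries. All 3 of these bins of 93-11 went from B to A. The largest called fall in Nip that stayed in B was on chromosome 4 from 22700001 to 22750000, with -0.029 and -0.027 in HS and -0.015 and -0.013 in normal libraries.

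Compartments of gene-poor bins were stable. In Nip, 841 were B in all 4 libraries (91.5%) and 48 were A (5.22%), and in 93-11, 1113 were B (90.8%) and 58 were A (4.73%). Most other bins were stable too, with 39.9% B and 52.8% A in all 4 libraries of Nip, and 38.4% and 54.5% in 93-11. Replicates of a condition disagreed in at most 1.20% of gene-poor bins of Nip and 1.63% of 93-11, against up to 3.5% and 2.86% of other bins. HS and normal libraries disagreed in 2.07% to 2.39% of gene-poor bins of Nip and in 3.02% to 3.51% of 93-11. In other bins they disagreed in 4.72% to 4.79% and in 4.58% to 5.27%. The disagreement between conditions exceeded that between replicates in both cultivars.

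A switch was counted where both normal libraries shared a call and both HS libraries shared the opposite one. In Nip, 4 gene-poor bins went from A to B (0.435%, exact 95% Clopper-Pearson interval 0.119% to 1.11%; 1.04% of all scored bins) and 7 from B to A (0.762%, 0.307% to 1.56%; 1.05% of all). In 93-11, 2 went from A to B (0.163%, 0.0198% to 0.588%; 0.793% of all) and 23 from B to A (1.88%, 1.19% to 2.8%; 1.71% of all). These intervals take bins as independent, which adjacent bins are not. Without 1 library the share going from A to B was 0.435% to 0.762% in Nip and 0.163% to 0.326% in 93-11, and that from B to A 0.871% to 1.41% and 2.12% to 2.77%. With calls from replicate means it was 0.871% and 0.326% from A to B, and 1.20% and 2.94% from B to A. Set against the bins that could switch, 4 of the 53 gene-poor bins that were A in both normal libraries of Nip went to B (7.55%, 2.09% to 18.2%), against 69 of 3387 other bins (2.04%). In 93-11, 2 of 62 did (3.23%, 0.393% to 11.2%), against 1.63% of other bins. Of gene-poor bins that were B, 7 of 857 in Nip went to A (0.817%, 0.329% to 1.68%), against 2.57% of other bins, and 23 of 1153 in 93-11 (1.99%, 1.27% to 2.98%), against 4.04%. No test over libraries was made of these shares, and few gene-poor bins were A.

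Switching members were mostly single bins. The only run of adjacent gene-poor bins that switched together was 100 kb of 93-11, chromosome 5 from 16450001 to 16550000, with 3 genes. Its mean PC1 was 0.0125 and 0.0140 in HS and -0.0310 and -0.0305 in normal libraries, and limma called both of its bins (adjusted p = 0.019 each). The largest single switch was on chromosome 6 of 93-11 from 18450001 to 18500000, with 0.038 and 0.020 in HS and -0.037 and -0.039 in normal libraries (limma adjusted p = 0.055). Another pair lay close together without touching. In Nip, chromosome 8 from 8750001 to 8800000 had 0.032 and 0.021 in HS and -0.025 and -0.015 in normal libraries, and 1 bin separated it from the bin at 8850001. Chromosome 7 of Nip from 12950001 to 13000000 had 0.025 and 0.003 in HS and -0.027 and -0.024 in normal libraries, so its replicates were far apart under HS (limma adjusted p = 0.077). Of the 23 switches from B to A in 93-11, limma called 11, and the 23 lay on 9 chromosomes with a median change of 0.0425.

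Switches from A to B were few. In Nip, chromosome 8 from 20450001 to 20500000 had -0.006 and -0.018 in HS and 0.034 and 0.026 in normal libraries (limma adjusted p = 0.052). Chromosome 8 from 850001 to 900000 had -0.014 and -0.005 in HS and 0.025 and 0.029 in normal libraries (limma adjusted p = 0.049). Chromosome 9 from 14650001 to 14700000 had -0.010 and -0.009 in HS and 0.011 and 0.008 in normal libraries. In 93-11 both were on chromosome 6. The bin from 22000001 to 22050000 had -0.008 and -0.003 in HS and 0.024 and 0.030 in normal libraries and was the only called fall, while the bin from 25450001 to 25500000 had -0.011 and -0.023 in HS and 0.003 and 0.012 in normal libraries.

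**Figure D4:**
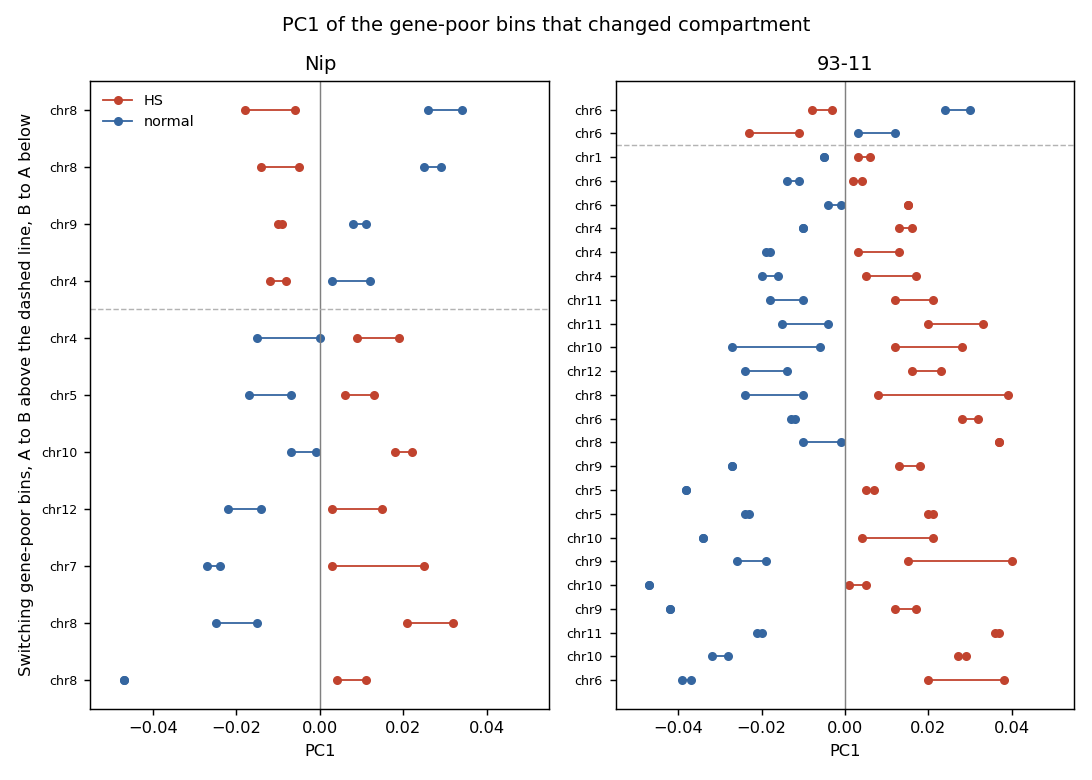
PC1 of each gene-poor bin that changed compartment, in Nip (left, 11 bins) and 93-11 (right, 25 bins). Red joins the 2 HS libraries and blue the 2 normal libraries of a bin, rows are labelled by chromosome, and rows above the dashed line went from A to B; in 93-11, 23 of the 25 went from B to A.

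None of the 3 lowest or 3 highest gene-poor bins of either cultivar was called by limma. They were ranked by PC1 over all chromosomes, and its size depends on the number of bins of a chromosome. The 3 lowest mean scores of Nip were all on chromosome 10, each with 2 genes, and the bin from 8400001 to 8450000 had -0.064 and -0.063 in HS and -0.058 in both normal libraries. The bins at 9750001 and 6500001 had the same values to within 0.001. In 93-11 the 3 lowest were on chromosome 9, and the bin from 3300001 to 3350000, with no gene, had -0.060 and -0.061 in HS and -0.056 and -0.055 in normal libraries. Both sets were lower in both HS libraries than in both normal ones. The highest scores belonged to gene-poor bins within A. Chromosome 10 of Nip from 22650001 to 22700000, with 2 genes, had 0.058 and 0.061 in HS and 0.056 and 0.057 in normal libraries, and chromosome 10 of 93-11 from 24700001 to 24750000 had 0.056 in both HS and 0.053 in both normal libraries. Gene-poor bins that were A in all libraries lay nearer the chromosome ends, with a median distance of 7.48 Mb in Nip and 7.16 Mb in 93-11, against 10.7 and 11.4 Mb for those in B.

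The longest runs were mostly B: every bin was B in all 4 libraries in 4 of the 6, and 6 of 7 and 9 of 11 bins were in the runs on chromosome 12 of Nip and of 93-11. In Nip the longest were 500 kb on chromosome 4 from 10600001 to 11100000 with 8 genes, 400 kb on chromosome 2 from 14400001 to 14800000 with 9 genes, and 350 kb on chromosome 12 from 12450001 to 12800000 with 9 genes. The mean PC1 of the chromosome 4 run was -0.0462 and -0.0454 in HS and -0.0440 in both normal libraries, and that of the chromosome 2 run was -0.050 and -0.0495 in HS and -0.0466 and -0.0469 in normal libraries. The chromosome 12 run differed the other way, with -0.0254 and -0.0290 in HS and -0.0379 and -0.0380 in normal libraries. In 93-11 the longest run was 550 kb on chromosome 12 from 11000001 to 11550000 with 11 genes, and its mean PC1 was -0.0436 and -0.040 in HS and -0.0363 and -0.0355 in normal libraries. The 500-kb run on chromosome 8 from 13100001 to 13600000, with 7 genes, had -0.0456 and -0.0463 in HS and -0.0506 and -0.0508 in normal libraries. The 400-kb run on chromosome 11 from 12950001 to 13350000, with 6 genes, had -0.0481 and -0.0489 in HS and -0.0467 and -0.0470 in normal libraries. In 4 of the 6 runs both HS libraries were thus lower than both normal ones, and in 2 they were higher.

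TAD boundaries, taken as the distinct starts and ends of all listed TADs, were counted next. The lists are nested, from outermost TADs at level 0 to TADs inside them up to level 7, and held 11273 to 11911 TADs in HS and 8317 to 8767 in normal libraries of the 2 cultivars. Which caller made the lists is not given in the sources used here, and the caller named in the methods gives TADs that are not nested, so the listed numbers and sizes hold for these lists only. The conditions are as the labels give them, and nothing in the compartment tables or TAD lists checks those labels independently, so the direction of every HS and normal difference in TADs rests on them. The files give no contact counts, so how depth bears on these numbers was not tested. Per gene-poor bin of Nip, 1.19 and 1.28 boundaries were listed under HS, and 0.679 and 0.666 under normal conditions. In 93-11 they held 1.09 and 1.13 in HS and 0.587 and 0.591 in normal libraries. Gene-poor chromatin thus carried 1.84 times as many boundaries in HS as in normal libraries of Nip and 1.88 times in 93-11, and other bins 1.52 times in both. The higher number in HS was found on all 12 chromosomes in Nip and 11 of 12 in 93-11, where both HS libraries exceeded both normal ones. These differences had the smallest p possible (exact permutation, p = 0.33 within a cultivar and p = 0.056 over both).

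In every library gene-poor bins had fewer boundaries than other bins. Other bins held 1.37 and 1.39 boundaries in HS and 0.917 and 0.903 in normal libraries of Nip, and 1.27 and 1.30 in HS and 0.850 and 0.839 in normal libraries of 93-11. The difference, gene-poor minus other, was -0.191 ± 0.0613 per bin in Nip and -0.215 ± 0.0476 in 93-11 (SD, n = 4 libraries each). It was negative in 8 of 8 libraries (exact two-sided sign-flip permutation over libraries, p = 0.0078, the smallest that 8 libraries allow). Libraries of a cultivar share the same bins, so here and in the sign-flip tests below p covers the spread between libraries only. Benjamini-Hochberg adjustment over 5 measures (mean PC1, share in A, boundaries per bin, TADs per bin and median TAD size) gave 0.0098. Mean PC1 and share in A count in that family although they draw on the gene number, which lowers the adjusted value. The difference was present on all 12 chromosomes of each cultivar in both conditions. It was smaller in HS than in normal libraries, by 0.0929 boundaries per bin in Nip and 0.0815 in 93-11 (exact permutation, p = 0.056, the smallest possible). The ratio of gene-poor to other bins was 0.28 higher in HS on the log2 scale in Nip and 0.31 higher in 93-11. With boundaries of outermost TADs only, however, the HS minus normal change of the difference was 0.000555 over both cultivars (exact permutation, p = 1), against 0.0872 with all TADs, so it was not seen with outermost TADs alone.

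Because gene-poor bins are mostly B, they were also compared with other bins that were B in all 4 libraries. Among B bins, the difference, gene-poor minus other, was -0.141 boundaries per bin in Nip and -0.203 in 93-11, negative in 8 of 8 libraries (exact sign-flip permutation, p = 0.0078). Among bins that were A in all libraries, where gene-poor bins were only 48 and 58, it was -0.174 and -0.116, also negative in 8 of 8. Gene-poor bins thus had fewer boundaries than other bins inside each compartment too.

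Many gene-poor bins had no boundary at all. In Nip, 18.3% and 13.8% lacked one in HS and 41.0% and 42.8% in normal libraries, while other bins averaged 9.72% in HS and 25.1% in normal libraries. In 93-11, 22.6% and 20.4% lacked one in HS and 48.5% and 49.2% in normal libraries, while other bins averaged 12.3% and 29.1%. Bins without a gene had the largest share lacking a boundary among the gene classes, 19.2% in HS and 48.4% in normal libraries of Nip, and 28.0% and 62.6% in 93-11. In Nip, 130 gene-poor bins (14.1%) had a boundary in both HS libraries and none in either normal library, and 8 (0.871%) had the reverse. In 93-11, the numbers were 218 (17.8%) and 16 (1.31%). Among other bins the shares were 9.05% and 0.572% in Nip, and 10.9% and 0.870% in 93-11. More gene-poor bins had none in either normal library to begin with, 26.7% in Nip and 33.6% in 93-11, against 13.7% and 16.6% of other bins. Of these, 130 of 245 gene-poor and 554 of 840 other bins of Nip had one in both HS libraries. The numbers for 93-11 were 218 of 412 and 661 of 1014. Set against the bins that could gain one, the share was thus lower in gene-poor than in other bins. Gene-poor bins with no boundary in any of the 4 libraries numbered 15 in Nip (1.63%, exact 95% interval 0.916% to 2.68%) and 45 in 93-11 (3.67%, 2.69% to 4.88%), against 0.719% and 0.706% of other bins.

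TADs with their midpoint in a gene-poor bin were longer than elsewhere and were shorter in HS. Their median size in Nip was 50 and 45 kb in HS and 90 and 95 kb in normal libraries. In 93-11, it was 55 and 50 kb in HS and 105 and 100 kb in normal libraries. At other bins the median was 40 kb in both HS libraries and 60 and 65 kb in normal libraries of Nip, and 45 kb in both HS and 70 kb in both normal libraries of 93-11. The HS minus normal difference of the median at gene-poor bins was thus -45 kb in Nip and -50 kb in 93-11 (exact permutation, p = 0.33 within a cultivar and p = 0.056 over both, the smallest possible). Counting only TADs with at least 50% of their length inside gene-poor bins, it was -32.5 kb in Nip and -35 kb in 93-11. Gene-poor bins exceeded other bins by 18.8 kb on average in Nip and 20.0 kb in 93-11, in 8 of 8 libraries (exact sign-flip permutation, p = 0.0078, adjusted 0.0098). The adjustment is over the same measures as for boundaries and has the same limit. Against B bins alone the excess was 16.3 and 18.8 kb. The excess was 22.5 kb smaller in HS than in normal libraries of Nip and 25 kb smaller in 93-11 (exact permutation, p = 0.056). It was 0.32 smaller on the log2 scale in Nip and 0.33 in 93-11. Long TADs were not confined to bins inside the limit of 2 genes. The median in normal libraries of Nip averaged 91.25 kb at 2 genes, 80 kb at 3 and 70 kb at 4. For 93-11 it averaged 90 kb at both 2 and 3 genes and 80 kb at 4. HS libraries averaged 47.5 kb at 2 and 45 kb at 3 genes in Nip, and 50 and 47.5 kb in 93-11.

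**Figure D5:**
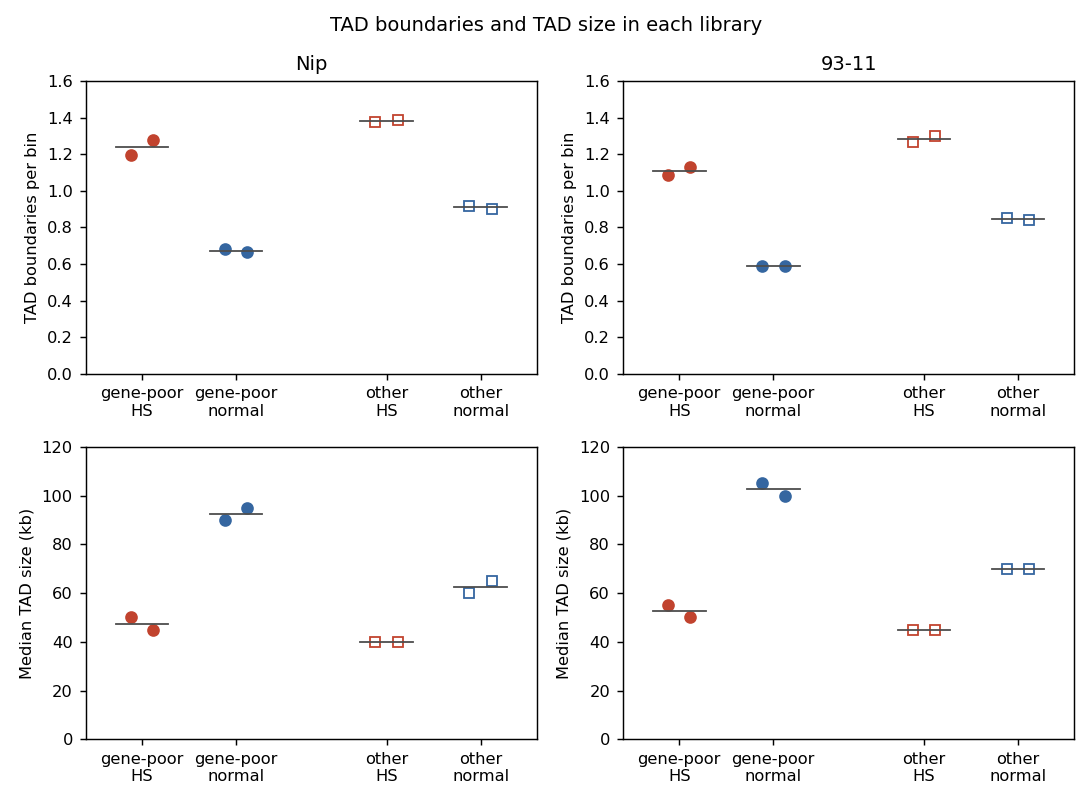
TAD boundaries per bin (top) and median size of TADs centred in the bins in kb (bottom) in each HS (red) and normal (blue) library of Nip (left) and 93-11 (right). Filled circles are gene-poor and open squares other bins, each point is a library and lines are means of 2; gene-poor bins hold fewer boundaries and longer TADs than other bins of the same library, with 90 to 105 kb in normal libraries.

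Both tails of the size distribution differed. TADs of 25 to 40 kb, the shortest listed, made up 43.4% and 46.7% of those at gene-poor bins in Nip under HS, against 17.5% and 16.4% under normal conditions, and 40.2% and 40.1% in HS and 14.0% and 15.7% in normal libraries of 93-11. TADs of 200 kb or more made up 6.78% and 5.60% in HS and 21.2% and 22.8% in normal libraries of Nip, and 6.54% and 6.70% in HS and 25.8% and 24.4% in normal libraries of 93-11. At other bins such large TADs made up 2.06% in HS and 11.3% in normal libraries of Nip, and 2.8% and 13.1% in 93-11. TADs of 25 to 40 kb made up 53.1% there in HS and 28.0% in normal libraries of Nip, and 47.9% and 24.4% in 93-11. The difference in kb was larger for outermost TADs. Their median at gene-poor bins was 80 and 70 kb in HS and 190 kb in both normal libraries of Nip, and 90 and 80 kb in HS and 190 kb in both normal libraries of 93-11. Elsewhere it averaged 57.5 kb in HS and 92.5 kb in normal libraries of Nip, and 65 and 105 kb in 93-11. Nesting was shallower in HS, with 27.7% of TADs at gene-poor bins at level 2 or deeper in Nip and 29.4% in 93-11, against 47.4% and 46.0% in normal libraries. Other bins differed the same way, with 20.7% and 23.9% in HS against 33.0% and 33.2% in normal libraries.

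The number of TADs, as distinct from their size and boundaries, gave no difference between gene-poor and other bins that passed the test. Per gene-poor bin, 1.49 and 1.65 TADs were centred in HS and 1.18 and 1.21 in normal libraries of Nip, and 1.48 and 1.5 in HS and 1.09 and 1.07 in normal libraries of 93-11. The difference from other bins ranged from -0.0483 to 0.0532 TADs per bin, with 4 libraries above 0 and 4 below (exact sign-flip permutation, p = 0.98). Outermost TADs covered 90.8% and 92.2% of gene-poor DNA in HS and 99.2% in both normal libraries of Nip, and 93.9% and 92.3% in HS and 99.0% and 98.9% in normal libraries of 93-11. More gene-poor DNA thus lay outside any TAD in HS, as did more of the other bins, which were covered to 89.5% in HS and 98.0% in normal libraries of Nip and to 91.9% and 98.0% in 93-11.

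The largest outermost TADs centred in gene-poor bins did not recur between libraries. In Nip under HS they spanned 615 kb on chromosome 12 from 14965001 to 15580000 and 575 kb on chromosome 11 from 12470001 to 13045000. Under normal conditions of Nip they spanned 620 kb, on chromosome 4 from 17040001 to 17660000 and on chromosome 7 from 10240001 to 10860000. In 93-11 under HS they spanned 645 kb on chromosome 10 from 7410001 to 8055000 and 640 kb on chromosome 8 from 23515001 to 24155000, and under normal conditions 635 kb on chromosome 8 from 6225001 to 6860000 and 630 kb on chromosome 2 from 14625001 to 15255000. Each of the 8 was listed with those ends in 1 library only. A midpoint in a gene-poor bin does not make a TAD gene-poor throughout. The TAD on chromosome 8 of 93-11 under HS held 68 genes, and 2 of its 14 bins were gene-poor. The remaining TADs held 6 to 10 gene-poor bins of 12 to 14. The largest TADs of HS were thus about as long as those of normal libraries, although large TADs were rarer.

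Boundaries shared by replicates were then followed between conditions. A boundary was gained where it lay in both HS libraries and had none within 5 kb in either normal library, and lost in the opposite case. In Nip, 269 of the 592 boundaries shared by HS libraries in gene-poor bins were gained (45.4%, exact 95% interval 41.4% to 49.5%; 34.3% in all scored bins), and 50 of the 346 shared by normal libraries were lost (14.5%, 10.9% to 18.6%; 12.8% in all). In 93-11, 309 of 585 were gained (52.8%, 48.7% to 56.9%; 41.3% in all) and 78 of 365 lost (21.4%, 17.3% to 25.9%; 17.7% in all). These intervals take boundaries as independent and cover counting error only. The shares moved with the rule. Lost boundaries were 43.2% in Nip and 57.9% in 93-11 at the same position and 7.29% and 11.4% within 10 kb, and without 1 library they were 19.9% to 36.7% and 29.6% to 43.8%. At other bins the gained share was 33.0% in Nip and 39.6% in 93-11, and among B bins alone it was 39.1% and 43.0%, against 46.1% and 54.2% in gene-poor B bins. Per 100 gene-poor bins, however, gained boundaries were about as many as elsewhere, 29.3 against 27.3 in Nip and 25.2 against 26.8 in 93-11, and lost ones were fewer, 5.44 against 7.78 and 6.36 against 8.88. The larger gained share thus went with fewer boundaries shared by replicates.

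Single bins gained or lost at most 2 boundaries. In Nip, 28 gene-poor bins gained 2, the first of them on chromosome 1 from 23200001 to 23250000, with 3 and 2 boundaries in HS and 1 and 0 in normal libraries. The bin of chromosome 10 from 7250001 to 7300000 lost 2, with 1 in each HS and 2 in each normal library. In 93-11, 35 bins gained 2, the first on chromosome 1 from 14900001 to 14950000, with 2 in each HS and 0 and 1 in normal libraries. The bin of chromosome 11 from 12800001 to 12850000 lost 2, with 1 in each HS and 2 in each normal library. In 3 of the 6 longest runs both HS libraries held more boundaries than both normal ones, and in the other 3 the conditions overlapped. The chromosome 4 run of Nip held 15 and 14 in HS and 4 and 8 in normal libraries, and the chromosome 12 run of 93-11 held 15 in each HS and 5 in each normal library. The chromosome 8 run of 93-11, which overlapped, held 6 and 13 in HS and 8 and 10 in normal libraries.

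A smaller share of TADs was found again between conditions than between normal replicates. A TAD counted as found where a TAD of the other library overlapped it by at least 80% both ways. Of TADs at gene-poor bins in normal libraries of Nip, 30.3% on average were found in an HS library and 51.6% in the other normal library, and in 93-11 25.1% and 46.6%. Of TADs in HS libraries of Nip, 22.9% were found in a normal library and 28.4% in the other HS library, and in 93-11 18.0% and 23.5%. HS replicates thus shared fewer TADs with each other than normal replicates did. Between HS replicates the share was lower at gene-poor bins than at other bins (32.6% in Nip and 26.8% in 93-11), while between normal replicates it was 51.9% and 47.4% at other bins.

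TAD size differed along a run under normal conditions. Inside runs of at least 3 gene-poor bins, leaving out the end bins, the median TAD size in Nip was 55 and 50 kb in HS and 125 and 120 kb in normal libraries, and in single gene-poor bins it was 45 kb in both HS and 80 and 90 kb in normal libraries. In 93-11, it was 50 and 55 kb in HS and 138 and 125 kb in normal libraries inside runs, and 55 kb in both HS and 100 and 95 kb in normal libraries in single bins. At the end bins of such runs it was 95 kb in both normal libraries of Nip and 95 and 85 kb in those of 93-11. TADs inside runs were thus longer than those of single bins in normal libraries, those at run ends in 93-11 were not, and runs of 2 and of 3 or more bins had the same mean of 105 kb in 93-11, while in HS libraries the values overlapped in 93-11 and lay 5 to 10 kb apart in Nip, and whether the conditions differed in this was not tested.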

How the data were processed

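The deposited compartment tables give, per library and 50-kb bin, a gene number and PC1, a score that the authors rounded to 3 decimals. The deposited TAD lists give start, end and level on a 5-kb grid. The submitters' processing notes name cutadapt 1.0, BWA and HiC-Pro 2.8.1, the methods name Bowtie2 within HiC-Pro, HOMER and HiCExplorer, and which tool made these files, the genome build and the gene annotation are not given in the sources used here. The depth of the libraries was not used here. Sequences of the bins were not analysed here, for want of a genome of the same build.

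Groups and replicate numbers came from the labels. The bins and tests were chosen with earlier results of these data known. Bins lacking a score in any library of their cultivar were left out (5.73% of the bins in Nip and 5.75% in 93-11). PC1 was tested with limma 3.58.1 in R 4.3.3 over all scored bins, with condition as the only term. Because rounding ties replicates, random digits within the rounding step were added in 21 seeded draws and the median p of a bin was adjusted by Benjamini-Hochberg. Library values were compared by exact permutation tests in Python 3.11.15 with SciPy 1.17.1. The libraries of a cultivar share the same bins, so a p over libraries covers the spread between libraries only. The fit and the list functions were tested on simulated data. Named bins were the 3 longest runs, every switching run, the 3 largest single switches of each direction, the 3 largest called rises and falls, the 3 highest and lowest mean scores, the bins that gained or lost most boundaries and the 2 largest outermost TADs of each condition, per cultivar, of which some are given only in part. Alternatives were another gene limit, another scale of PC1, another definition of A, of a switch, of a TAD and of a changed boundary, a replicate block, and leaving out each library.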

Additional observations from a re-analysis of the deposited data

Results flagged for a closer look

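Bins with 0 to 2 genes that lacked a score, which no comparison above used, still carried TAD boundaries. The 177 such bins of Nip held 0.785 boundaries per bin in HS and 0.610 in normal libraries, and the 291 of 93-11 held 0.703 and 0.605. They stand here because they lay outside every comparison. In 146 of those bins of Nip and 235 of 93-11 none of the 4 libraries had a score. Outermost TADs covered 70.8% and 72.3% of these bins in HS and 94.5% and 95.5% in normal libraries of Nip, and 66.8% and 70.3% in HS and 93.7% and 92.9% in normal libraries of 93-11. How the authors' caller placed boundaries where no score was given was not tested.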

How the results depend on the processing

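Of 292 alternative values over 30 results, 221 kept their direction and side of the threshold or stayed near the main value. HS minus normal changes in library values cannot pass the threshold here, and without single libraries they had no test. Their alternatives could thus depart from the main result only by a change of sign. Even the change of the boundary difference with outermost TADs, 0.000555 against 0.0872, counted as kept. For these changes the 221 is therefore no measure of stability. Changes upon HS in mean PC1, share in A, boundaries per bin and median TAD size kept their sign under each alternative run.

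Called gene-poor bins depended most on the settings. Rises in Nip numbered 13 with 0 to 1 genes, 36 with 0 to 3 genes, 46 on values as deposited, 12 with PC1 divided by its SD per chromosome and 0 to 63 without single libraries. Falls in Nip numbered 24 with 0 to 3 genes, 132 as deposited, 3 with the SD scaling, 4 with quantile normalization and 0 to 13 without single libraries. In 93-11 rises numbered 12, 55 and 79 with 0 to 1 genes, 0 to 3 genes and values as deposited, and 0 to 22 without single libraries. Falls in 93-11 numbered 0, 4 and 189 under the same 3 settings and 0 without any single library. With the replicate number as a block there were 0 calls in both cultivars, with 124 rises and 164 falls at an unadjusted limma p below 0.05 in Nip and 166 and 108 in 93-11. For the share in A the block gives the same 0.653 and 2.57 points by arithmetic, which is no sign of stability. Deviations of same-numbered libraries had a correlation over bins of 0.0182 in Nip and 0.0136 in 93-11, so the numbers were not taken to pair them. Values as deposited tie replicates, and the majority of calls in gene-poor bins then turned to falls. Over all scored bins they gave 508 rises and 473 falls in Nip and 622 and 627 in 93-11. The SD scaling gave 79 and 74 over all scored bins of Nip and 135 and 56 of 93-11. Quantile normalization gave 83 and 94 in Nip and 105 and 106 in 93-11.

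Switches from A to B were 0.109% of gene-poor bins in Nip and 0% in 93-11 with a mean PC1 at least 0.25 SD from 0, and 0% in 93-11 with 0 to 1 genes. Switches from B to A were 0.218% and 1.14% with that minimum, and 2.94% in 93-11 with calls from replicate means. Lost boundaries were 43.2% in Nip and 57.9% in 93-11 at the same position, 7.29% and 11.4% within 10 kb, and 19.9% to 36.7% and 29.6% to 43.8% without single libraries. Gained boundaries were 67.1% and 74.7% at the same position, 35.9% and 42.9% within 10 kb, and 53.0% to 60.0% and 61.0% to 67.9% without single libraries, where fewer libraries must share or lack a boundary.

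TADs per bin, gene-poor minus other, had no stable sign, with -0.00177 as the main value, 0.0206 with 0 to 3 genes, 0.0246 among B bins, 0.169 among A bins (exact sign-flip permutation, p = 0.023), -0.00962 to 0.00487 without single libraries and -0.066 for outermost TADs (p = 0.0078, exact). Its HS minus normal change was -0.0388, and 0.00443 for outermost TADs. For these settings the cause was not tested. The number of libraries limits every test between conditions.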
